A study of Ovis aries with 49 samples.

Results

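CD36, VLDLR and ABHD5 are genes of lipid uptake and lipolysis, and their transcripts were followed across 5 adipose depots of lambs at 28 and 7 days of age. Members were the probe sets whose gene symbol in the platform annotation is CD36, VLDLR or ABHD5. There were 3 of them among the 10273 of the table, 206488_s_at for CD36, 209822_s_at for VLDLR and 218739_at for ABHD5. The rule reads gene symbols and no measured value, but the 3 genes were picked with earlier results of these data known.

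Total RNA of sheep (Ovis aries) epicardial, omental, perirenal, sternal and subcutaneous fat had been hybridised to 49 human expression arrays (Human Genome U133 Plus 2.0), of which 25 came from lambs of 28 days and 24 from lambs of 7 days. Each group held 5 arrays, except subcutaneous fat at 7 days with 4. The lambs were non-identical, sex-matched twins of Bluefaced Leicester cross Swaledale ewes, and 1 twin of a pair was sampled at each age. Ewes had received either a standard diet or the same diet with canola oil, but the labels do not state the diet of a sample. Every title carries the same letter C, which the labels do not define, and all arrays of a depot and age were treated as 1 group. Ages are those of the age field and the titles, whereas a description shared by all samples names an older age range. Each replicate number of the labels is written here as a letter (H to O for lambs of 28 days, A to G for lambs of 7 days) that is kept across depots. Labels do not say that these numbers are animals, so p-values measure the spread between these arrays. Since the depots were sampled from the same lambs, fits with the number as a block are given where they changed a call.

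CD36 is a scavenger receptor of the cell surface that takes up long-chain fatty acids, and it is made by adipocytes, muscle fibres, capillary endothelium, macrophages and platelets. VLDLR, the very low density lipoprotein receptor, binds triglyceride-rich lipoproteins that carry apolipoprotein E and helps lipoprotein lipase to release their fatty acids, and it is abundant in heart, skeletal muscle and fat. ABHD5, also called CGI-58, works on the way out: in mouse and human adipocytes it sits on the lipid droplet bound to perilipin, and once released by hormone signals it activates the triglyceride lipase encoded by PNPLA2.

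All values are log2 expression after GCRMA, a background correction and summary of the probes of a set, so a difference of 1 is a doubling. The lowest value of the table was 2.49 and 82.7% of all values lay below 4. Over the 49 arrays CD36 ran between 8.08 and 10.25, VLDLR between 3.16 and 7.04, and ABHD5 between 3.40 and 5.59. CD36 was therefore clear of the lowest signal on every array, and ABHD5 and part of the VLDLR values were not far above it. Exactly repeated values also occurred: ABHD5 stood at 4.11 on 10 arrays from 7 groups and VLDLR at 4.97 on 7 arrays, whereas CD36 had no repeated value. Levels are not compared between genes, since human probes bind each ovine transcript with their own strength.

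Several arrays stood apart by muscle transcripts. CKM, the creatine kinase of heart and skeletal muscle, lay above 4 on 4 of 5 epicardial arrays at 28 days and on all 5 at 7 days, but also on 3 sternal and 2 subcutaneous arrays at 28 days and on 1 sternal and 3 subcutaneous arrays at 7 days. No omental or perirenal array did so. The adipocyte label itself could be checked only in part. Of 16 adipocyte markers 7 were measured, 6 of them averaged below 3 and the highest, CFD, averaged 3.46. No probe set of the table carried ADIPOQ or PLIN1 as its only symbol, so these were not analysed here. In bulk tissue, fewer cells of a type and less RNA per cell cannot be told apart.

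**Figure D1:**
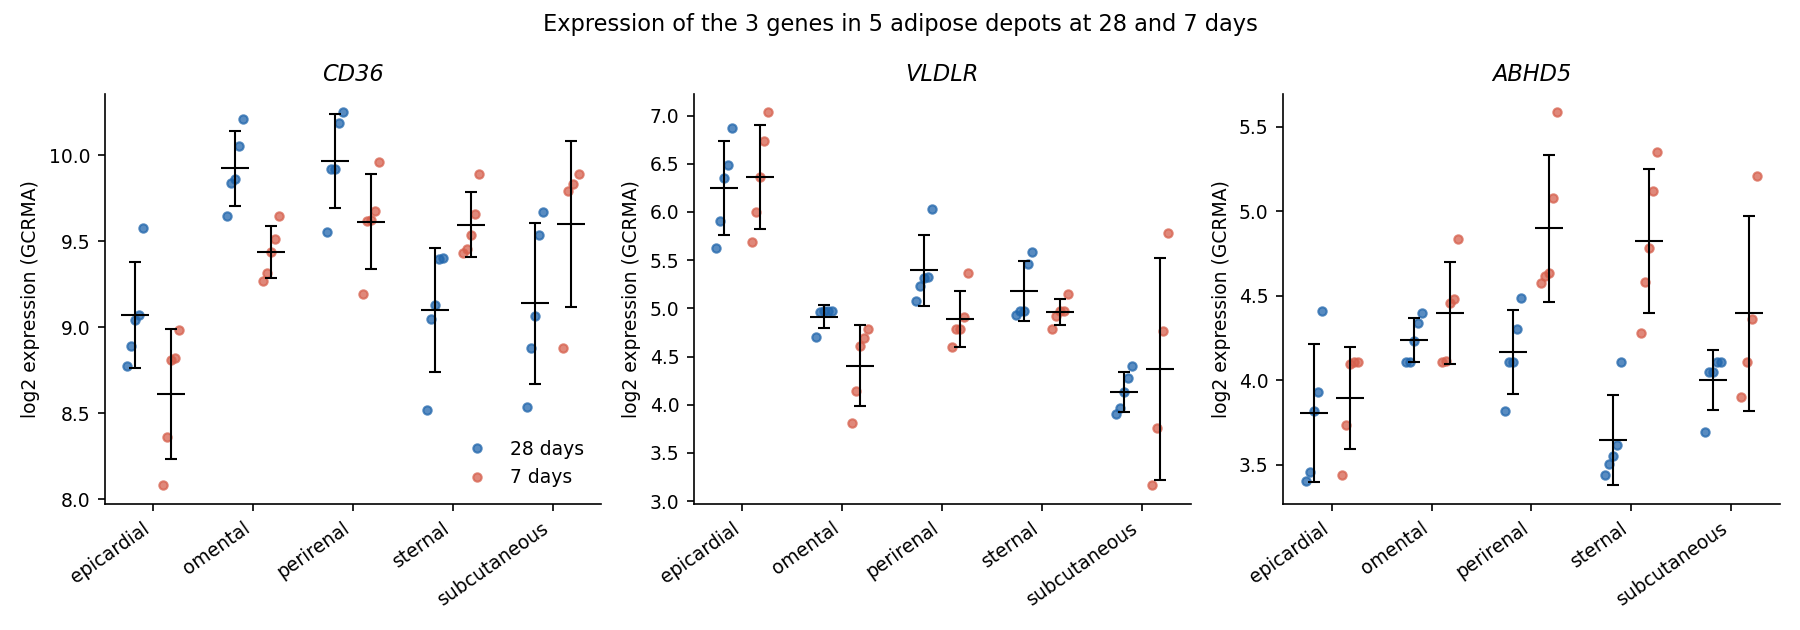
Log2 expression (GCRMA) of CD36, VLDLR and ABHD5 in 5 depots, with 28 days to the left of 7 days; each point is 1 array and bars give mean ± SD (n = 5, or 4 for subcutaneous fat at 7 days). VLDLR is high in epicardial fat at both ages (6.25 and 6.37), CD36 is high in omental and perirenal fat at 28 days (9.92 and 9.97), and all 5 ABHD5 values of perirenal and of sternal fat at 28 days lie below those at 7 days.

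CD36 was higher in perirenal and in omental fat at 28 days. Perirenal fat had 10.25, 9.56, 10.19, 9.92 and 9.92, against a lowest value of 8.52, a median of 9.26 and a highest of 10.21 over the 20 arrays of the other 4 depots. Omental fat had 9.65, 9.84, 10.21, 10.06 and 9.87, again against a median of 9.26 over the other 20 arrays. All 10 arrays of the 2 depots lay above that median, but both ranges overlapped those of the other depots. Perirenal fat was 1.58-fold higher (log2 difference 0.66 ± 0.16 SE, limma adjusted p = 0.0227) and omental fat 1.52-fold higher (0.60 ± 0.16, adjusted p = 0.0285). CD36 was called in perirenal fat, where 3.36% of all probe sets were called, and in omental fat, where 5.12% were.

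Epicardial fat at 28 days averaged 9.07 ± 0.31, sternal fat 9.10 ± 0.36 and subcutaneous fat 9.14 ± 0.47 (SD, n = 5 each), so these 3 depots lay close together. The order at 28 days was perirenal, omental, subcutaneous, sternal, epicardial. Of the 4 neighbouring pairs only omental and subcutaneous fat differed (log2 difference 0.79 ± 0.20, adjusted p = 0.0438), a call lost on omission of any of 14 of the 25 arrays, at most to an adjusted p of 0.134 without subcutaneous replicate M. Over all 10 pairs 6 differed, namely perirenal and omental fat each against the other 3 depots, and 5 with the replicate block, where epicardial against perirenal fat gave -0.93 (adjusted p = 0.0567). The perirenal excess was 0.87 ± 0.20 over sternal fat (adjusted p = 0.00607), and 0.65 (0.0627) after quantile normalization.

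As a background to these pairs, 12.2%, 15.7%, 13.6% and 11.3% of all probe sets were called between sternal and epicardial, omental, perirenal and subcutaneous fat at 28 days. Pairs without sternal fat had fewer calls. Epicardial against omental, perirenal and subcutaneous fat gave 3.07%, 2.16% and 3.02%, omental against perirenal and subcutaneous fat 2.87% and 2.08%, and perirenal against subcutaneous fat 2.51%. CD36 was thus called in 4 of 6 pairs that did not involve sternal fat.

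The perirenal and omental differences from the other 4 depots were close to the threshold. When the 5 sternal and subcutaneous arrays of that age with CKM above 4 were omitted, perirenal fat was higher by 0.51 (adjusted p = 0.0602) and omental fat by 0.46 (adjusted p = 0.0664), and after quantile normalization omental fat was higher by 0.53 (adjusted p = 0.0874). Omission of omental replicate J, M, N or O gave 0.63 (adjusted p = 0.0509), 0.53 (0.102), 0.57 (0.0896) and 0.62 (0.0548) for omental fat. With the replicate block perirenal fat was higher by 0.64 (adjusted p = 0.0767). Omission of perirenal replicate I, K or M gave 0.59 (adjusted p = 0.0868), 0.60 (0.0903) and 0.67 (0.0545) for perirenal fat. Endothelial markers, of which 12 of 22 were measured and 10 averaged below 3, also had their highest means in these depots. The mean of the list per array ran from 2.82 to 2.93 in perirenal and from 2.81 to 2.89 in omental fat, against 2.71 to 2.90 in epicardial, 2.66 to 2.73 in sternal and 2.70 to 2.79 in subcutaneous fat. PECAM1, a defining endothelial marker, averaged 2.56 over all arrays, near the lowest signal. Of the 12 endothelial markers 1 was called higher in each of the 2 depots. Fibroblast and matrix markers moved in opposite directions in them, with 10 of 17 called lower in perirenal fat (list median -0.51) and 3 of 17 called higher in omental fat (list median 0.22). The part of these cell types in the CD36 difference was not tested.

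At 7 days the difference lay in another depot. Epicardial fat had the lowest CD36, with 8.81, 8.98, 8.08, 8.82 and 8.36, against a lowest value of 8.88, a median of 9.62 and a highest of 9.96 over the 19 arrays of the other depots. Of the 5 epicardial arrays 4 lay below every other array. The lowest of the others was subcutaneous replicate A, whose CKM level of 12.95 was the highest of all arrays. CD36 was 1.93-fold lower in epicardial fat (log2 difference -0.95 ± 0.15, adjusted p = 0.000322), in a comparison in which 4.07% of all probe sets were called. The call held after every single array was left out (adjusted p from 1.45e-05 to 0.00296). In the same comparison 12 of 19 cardiac muscle markers were called higher in epicardial fat (list median 2.83), and their part in the CD36 difference was not tested.

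Each of the other 4 depots exceeded epicardial fat at 7 days, so 4 of 10 pairs differed. Between epicardial and omental, perirenal, sternal and subcutaneous fat 4.18%, 2.37%, 3.93% and 2.42% of all probe sets were called at 7 days. The other pairs had 5.00% (omental and perirenal), 0.701% (omental and sternal), 0.204% (omental and subcutaneous), 1.85% (perirenal and sternal), 4.15% (perirenal and subcutaneous) and 1.21% (sternal and subcutaneous), and CD36 was called in none of them. The other means were 9.44 ± 0.15 in omental, 9.60 ± 0.19 in sternal, 9.60 ± 0.48 in subcutaneous (n = 4) and 9.61 ± 0.28 in perirenal fat. The widest of their differences, omental minus perirenal fat, was -0.18 ± 0.19 (log2 ± SE, adjusted p = 0.679). An F test over the 5 depots passed at both ages for CD36 (adjusted p = 0.0014 at 28 days, where 20.0% of probe sets passed, and 0.00314 at 7 days, where 8.16% did). At 28 days epicardial fat still had a low mean, but against the other 4 depots the difference was -0.46 ± 0.16 (adjusted p = 0.14), and -0.61 (adjusted p = 0.0163) once the 5 muscle-marked arrays of sternal and subcutaneous fat (CKM above 4) were left out. Epicardial arrays with CKM above 4 were kept in that fit, so muscle-marked arrays stood on the epicardial side only. The part of muscle in this difference was not tested.

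**Figure D2:**
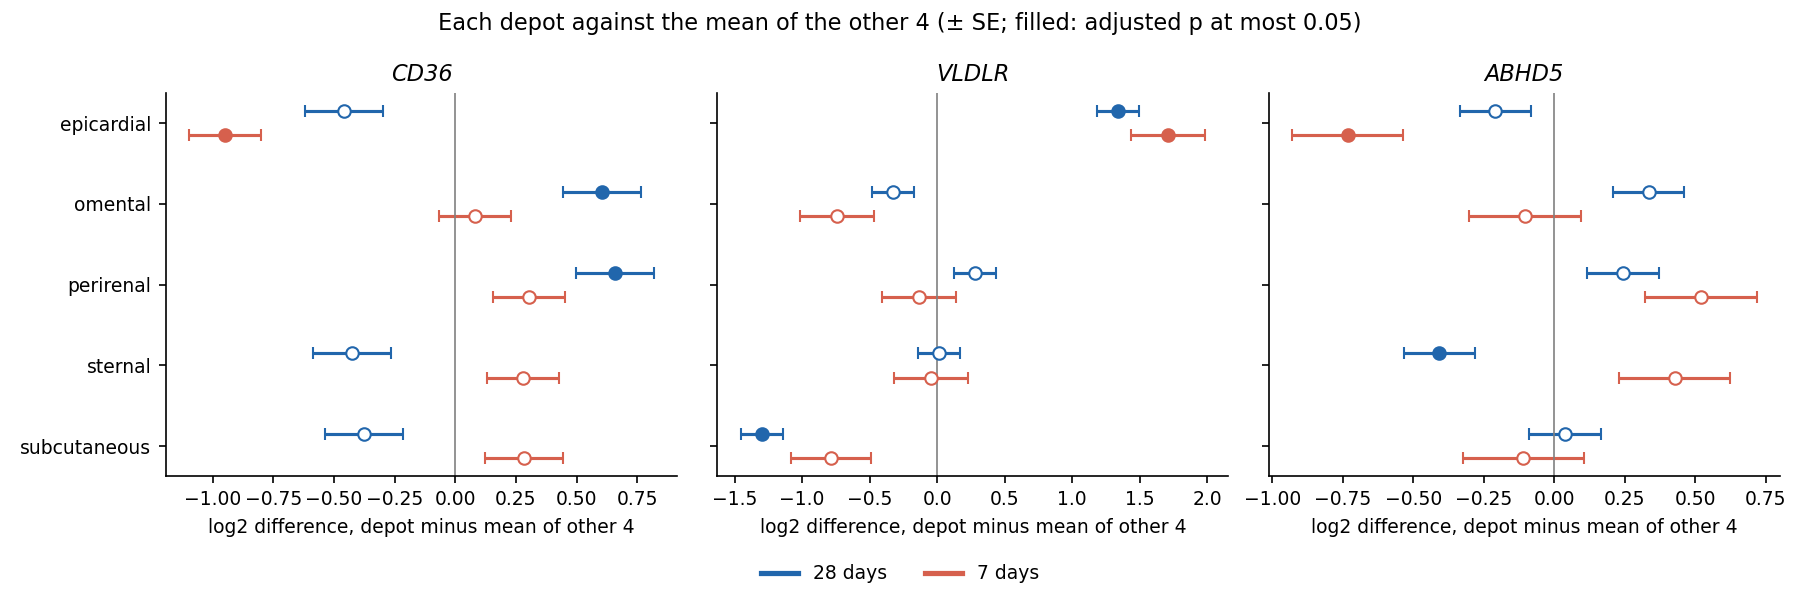
Log2 difference ± SE between each depot and the mean of the other 4 depots, for CD36, VLDLR and ABHD5 at 28 and 7 days; filled points have a limma adjusted p of at most 0.05. VLDLR in epicardial fat lies at 1.34 (28 days) and 1.71 (7 days), and VLDLR in subcutaneous fat at 28 days lies at -1.30.

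VLDLR was high in epicardial fat at both ages and low in subcutaneous fat at 28 days. At 28 days epicardial fat had 5.91, 6.87, 6.49, 5.62 and 6.35, against a lowest value of 3.90, a median of 4.97 and a highest of 6.03 over the other 20 arrays. Epicardial replicates J, L and O lay above every other array, while I and N lay below perirenal replicate J, the highest of the others. VLDLR was 2.53-fold higher in epicardial fat (log2 difference 1.34 ± 0.16, adjusted p = 1.06e-05), where 3.24% of all probe sets were called. At 7 days epicardial fat had 5.69, 6.73, 6.37, 6.00 and 7.04, against a lowest value of 3.16, a median of 4.78 and a highest of 5.79 over the other 19 arrays. The highest of the others was again subcutaneous replicate A, the array with the most CKM. VLDLR was 3.27-fold higher in epicardial fat at 7 days (1.71 ± 0.28, adjusted p = 0.000464).

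Heart muscle transcripts moved with this difference. Of 30 cardiac muscle markers 19 were measured, and of these 10 at 28 days and 12 at 7 days were called higher in epicardial fat, none lower. The mean of the cardiac list per array ran from 2.80 to 6.74 in epicardial fat at 28 days and from 5.47 to 6.97 at 7 days, against 2.86 at most in omental and perirenal fat, up to 5.55 and 3.49 in sternal fat at 28 and 7 days, and up to 3.37 and 6.12 in subcutaneous fat at 28 and 7 days. Epicardial replicate I at 28 days had a cardiac list mean of 2.80 and a CKM level of 2.76, as low as omental and perirenal fat, and its VLDLR level was 5.91. That value lay above all but 1 of the 20 arrays of the other depots.

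Every array of 28 days with CKM above 4 was then left out, as an alternative chosen after seeing the data. Epicardial fat was left with replicate I alone, and VLDLR was higher by 1.08 on it. Since 1 array gives no spread of its own, this is a description and not a test of epicardial fat. No epicardial array of 7 days had CKM below 4, so the same could not be done there. How much of the VLDLR difference goes with heart muscle was not tested.

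**Figure D3:**
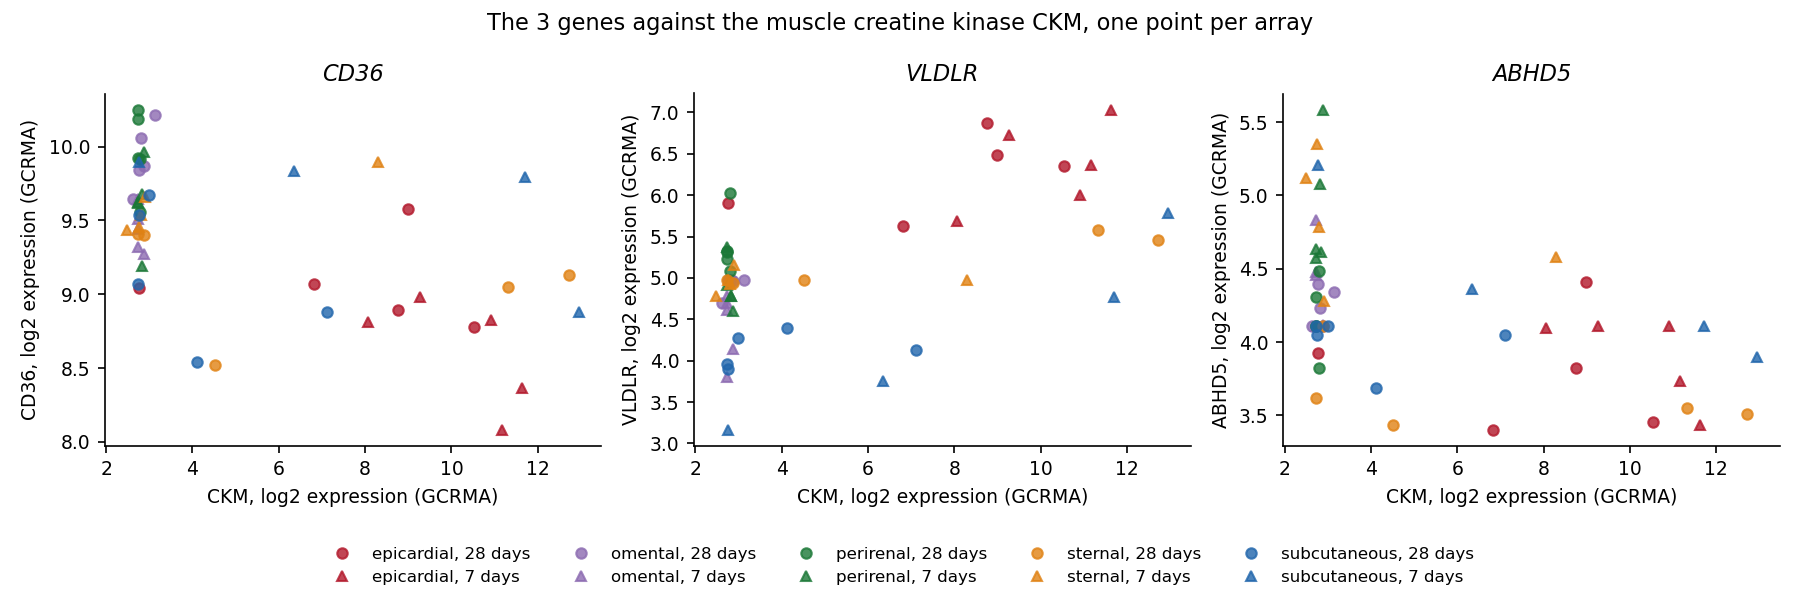
Log2 expression of CD36, VLDLR and ABHD5 (vertical) against CKM (horizontal), 1 point per array, with circles for 28 days and triangles for 7 days. The epicardial array of 28 days with a CKM level of 2.76 has a VLDLR level of 5.91. Subcutaneous arrays of 28 days have VLDLR levels of 4.40 or below, at CKM levels from 2.73 to 7.11.

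At the other end stood subcutaneous fat. At 28 days it had 3.90, 4.28, 4.13, 4.40 and 3.96, against a lowest value of 4.70, a median of 5.27 and a highest of 6.87 over the 20 arrays of the other depots. All 5 subcutaneous arrays lay below all others, and VLDLR was the 1 probe set of 10273 (0.00973%) with such a gap downwards in that depot. Many probe sets could hardly show it, since 82.7% of all values lay below 4 and 88.0% of probe sets shared a value on at least 7 arrays. The share among the 1752 probe sets averaging 4 or more is not given here. The same limit holds for the shares with no overlap downwards between ages. The subcutaneous VLDLR difference was 2.46-fold (log2 -1.30 ± 0.16, adjusted p = 2.81e-05), with 3.04% of all probe sets called in either direction. Leaving out single arrays gave -1.37 to -1.24, and omitting those sternal and subcutaneous arrays whose CKM exceeded 4 gave -1.33 (adjusted p = 0.00195). Sternal fat exceeded subcutaneous fat by 1.05 ± 0.20 (adjusted p = 0.00116). Fibroblast and matrix markers were high in subcutaneous fat at 28 days, with 7 of 17 called higher (list median 0.43) and a list mean per array of 5.96 to 6.38, against 5.53 to 5.78 in epicardial, 5.74 to 6.12 in omental, 5.00 to 5.56 in perirenal and 5.61 to 6.28 in sternal fat. Their part in the VLDLR difference was not tested.

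At 7 days subcutaneous VLDLR was scattered. Replicates A, E, F and G had 5.79, 3.76, 3.16 and 4.77, and their CKM levels were 12.95, 6.35, 2.77 and 11.71. The array with the least CKM thus had the lowest VLDLR. Against the other 4 depots the difference was -0.79 ± 0.30 (adjusted p = 0.261), and -1.26 (adjusted p = 0.018) without replicate A. Without all 3 subcutaneous arrays and the 1 sternal array with CKM above 4, a single subcutaneous array remained, replicate F. Its difference from the other depots was -1.99, and 1 array gives no spread of its own. In the whole comparison 1.53% of probe sets were called.

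At 28 days the order was epicardial (6.25 ± 0.49), perirenal (5.40 ± 0.37), sternal (5.18 ± 0.31), omental (4.91 ± 0.12) and subcutaneous (4.13 ± 0.21), and 7 of 10 pairs differed. Epicardial fat differed from perirenal fat (0.85 ± 0.20, adjusted p = 0.0196) and omental from subcutaneous fat (0.78 ± 0.20, adjusted p = 0.0381), calls lost on omission of any of 5 and of 7 of the 25 arrays (adjusted p at most 0.0629 without epicardial replicate J and 0.087 without subcutaneous replicate J), while the neighbouring pairs among perirenal, sternal and omental fat were not called. With the replicate block both calls were lost (0.71, adjusted p = 0.0829, and 0.67, adjusted p = 0.0607), and 5 of 10 pairs were called. At 7 days the order was epicardial (6.37 ± 0.54), sternal (4.96 ± 0.13), perirenal (4.89 ± 0.29), omental (4.41 ± 0.42) and subcutaneous (4.37 ± 1.15, n = 4). There the 4 differing pairs were those with epicardial fat, and 2 were left without epicardial replicate G. F tests over the depots passed at both ages for VLDLR (adjusted p = 3.04e-06 at 28 days and 0.00299 at 7 days).

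ABHD5 differed between depots less firmly. At 28 days sternal fat had the lowest mean, with 3.62, 3.51, 4.11, 3.44 and 3.55, against a lowest value of 3.40, a median of 4.11 and a highest of 4.49 over the other 20 arrays. Of the 5 sternal arrays 4 lay between 3.44 and 3.62, and the fifth, replicate M, stood at the median of the others. ABHD5 was 1.33-fold lower in sternal fat (log2 difference -0.41 ± 0.13, adjusted p = 0.026), but 20.1% of all probe sets were called in that comparison and 18.4% were called lower.

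Sternal arrays at 28 days were lower over the whole table, with a mean over all probe sets of 3.27, against 3.40 to 3.42 in the other 4 depots. After quantile normalization, which removes such a shift, the ABHD5 difference was -0.08 (adjusted p = 0.716). With only the 2 sternal arrays whose CKM lay below 4 (replicates I and M), and 3 subcutaneous ones, it was -0.21 (adjusted p = 0.601), and with the replicate block -0.36 (adjusted p = 0.0529). Omission of sternal replicate I, J, N or O gave -0.40 (adjusted p = 0.0584), -0.37 (0.0729), -0.36 (0.088) and -0.39 (0.0687). The low sternal level of ABHD5 at 28 days was thus not called after rescaling, without muscle-marked arrays or with the replicate block. In the main comparison 7 of 16 measured skeletal muscle markers were called higher in sternal fat, where 20.1% of all probe sets were called. The part of scaling and of muscle in the ABHD5 difference was not tested.

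The order of ABHD5 at 28 days was omental (4.24 ± 0.13), perirenal (4.17 ± 0.25), subcutaneous (4.00 ± 0.18), epicardial (3.80 ± 0.41) and sternal (3.64 ± 0.27). No neighbouring pair was called, and 2 of 10 pairs were, omental above sternal (0.59 ± 0.16, adjusted p = 0.0128) and perirenal above sternal (0.52 ± 0.16, adjusted p = 0.032). Neither pair was called after quantile normalization. The perirenal one was lost with the replicate block (0.50, adjusted p = 0.0625) and on omission of any of 6 of the 25 arrays (adjusted p at most 0.0897, without perirenal replicate N). The F test gave an adjusted p of 0.0354 at 28 days, of 0.289 after quantile normalization and of 0.0815 without sternal replicate N.

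At 7 days epicardial fat was lowest for ABHD5, with 4.10, 4.11, 3.73, 4.11 and 3.44, against a lowest value of 3.90, a median of 4.58 and a highest of 5.59 over the other 19 arrays. Only replicates D and G lay below all others. ABHD5 was 1.66-fold lower in epicardial fat (log2 difference -0.73 ± 0.20, adjusted p = 0.0362). The call was lost without perirenal replicate B (-0.72, adjusted p = 0.0506) and without epicardial replicate A (-0.78, 0.0533), C (-0.79, 0.0501), D (-0.69, 0.0858) or G (-0.62, 0.162), and with the replicate block (-0.71, 0.0818). The cardiac muscle markers, 12 of 19 called higher here, moved with this difference too, and their part in it was not tested. Perirenal fat had the highest mean, 4.90 ± 0.44, and differed from the other 4 depots by 0.52 ± 0.20 (adjusted p = 0.142), where 5.11% of probe sets were called.

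The order of ABHD5 at 7 days was perirenal, sternal (4.82 ± 0.42), omental (4.40 ± 0.30), subcutaneous (4.40 ± 0.58, n = 4) and epicardial (3.90 ± 0.30), with no neighbouring pair called. Of 10 pairs 2 differed, epicardial below perirenal (adjusted p = 0.0302) and epicardial below sternal fat (-0.93 ± 0.25, adjusted p = 0.0358), and none were left without epicardial replicate D or G. With the replicate block the sternal pair was lost (-0.92, adjusted p = 0.111). The F test over the 5 depots gave an adjusted p of 0.0517, and of 0.0312 after quantile normalization. All 3 genes, picked with earlier results known, were called in epicardial fat at 7 days, where 4.07% of all probe sets were. VLDLR was higher and CD36 and ABHD5 lower, and ABHD5 was not called with the replicate block. Mean levels of CD36, VLDLR and ABHD5 reached or exceeded those of 98.9%, 89.4% and 84.6% of probe sets. The share called among probe sets of like level is not given here.

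Between ages ABHD5 was called in sternal and perirenal fat and over all depots. Sternal fat had 3.62, 3.51, 4.11, 3.44 and 3.55 at 28 days, against 4.78, 4.58, 5.35, 4.28 and 5.12 at 7 days. The highest value at 28 days lay below the lowest at 7 days, a separation shown by 2.20% of all probe sets in sternal fat. ABHD5 was 2.27-fold lower at 28 days (log2 difference -1.18 ± 0.21, adjusted p = 0.000122), where 6.37% of all probe sets were called. The difference was -1.19 (adjusted p = 0.000102) after quantile normalization. It was -1.02 (adjusted p = 0.0228) over sternal arrays with CKM below 4, of which there were 2 at 28 and 4 at 7 days.

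Perirenal fat moved the same way. ABHD5 stood at 4.11, 3.82, 4.11, 4.30 and 4.49 at 28 days, against 5.59, 5.08, 4.58, 4.64 and 4.61 at 7 days. The ages did not overlap, which held for 2.54% of all probe sets in that depot, although 4.49 and 4.58 lay close together. The fall was 1.66-fold (log2 difference -0.73 ± 0.21, adjusted p = 0.0182), with 9.32% of all probe sets called. Without perirenal replicate A of 7 days it was -0.56 (adjusted p = 0.107), without replicate J of 28 days -0.65 (adjusted p = 0.0635), and in a fit of perirenal arrays alone the adjusted p was 0.0731.

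In subcutaneous fat the ABHD5 difference between 28 and 7 days was -0.39 ± 0.22 (adjusted p = 0.311), in omental fat -0.16 ± 0.21 (0.72) and in epicardial fat -0.09 ± 0.21 (0.957). Averaged over the 5 depots, ABHD5 was 1.43-fold lower at 28 days (-0.51 ± 0.10, adjusted p = 4.91e-05), in a comparison in which 25.5% of all probe sets were called. It was -0.68 (adjusted p = 3.7e-07) after quantile normalization, and leaving out any 1 array gave -0.55 to -0.46. These fits took all arrays as independent, although replicate numbers recur across depots, so the SE can be too small. The call was kept with the replicate block. Twins of a pair were sampled at different ages, but no label links them, so their pairing entered no fit between ages. Tissue pieces taken for extraction were larger at 28 than at 7 days, and this cannot be told apart from age.

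Some markers of brown adipocytes fell in these depots and in others. UCP1, the uncoupling protein that defines brown adipocytes, averaged 2.91 ± 0.05 at 28 days and 6.29 ± 1.12 at 7 days in perirenal fat, and 2.90 ± 0.02 at 28 days and 4.46 ± 0.81 at 7 days in sternal fat. Of 13 brown adipocyte markers 8 were measured, and UCP1, PPARGC1A and PPARGC1B were called lower at 28 days in both depots, the other 5 in neither. In epicardial fat, where ABHD5 was not called, UCP1 averaged 2.90 ± 0.03 at 28 days and 4.04 ± 0.81 at 7 days (-1.14 ± 0.36, adjusted p = 0.0538) and PPARGC1A was called lower. In omental fat UCP1 averaged 2.91 at 28 days and 3.65 ± 0.91 at 7 days (-0.74 ± 0.36, adjusted p = 0.184), and in subcutaneous fat PPARGC1B was called lower and ZIC1 higher. The mean of the brown list per array ran from 3.23 to 3.49 at 28 days and from 3.87 to 4.38 at 7 days in perirenal fat, and from 2.88 to 3.66 at 28 days and from 3.68 to 3.87 at 7 days in sternal fat. Fibroblast and matrix markers went up in sternal fat, with 10 of 17 measured called higher at 28 days and a list mean of 5.61 to 6.28 at 28 days against 4.95 to 5.39 at 7 days. In perirenal fat 2 of these 17 were called higher, and of 12 endothelial markers 4 were called higher and 1 lower. Over all depots 12 of 17 fibroblast and matrix, 7 of 12 endothelial and 3 of 6 macrophage markers were called higher and none lower, where 25.5% of all probe sets were called. Of 16 measured skeletal muscle markers 2 were called higher at 28 days in sternal fat. The part of these cell types in the fall of ABHD5 was not tested.

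**Figure D4:**
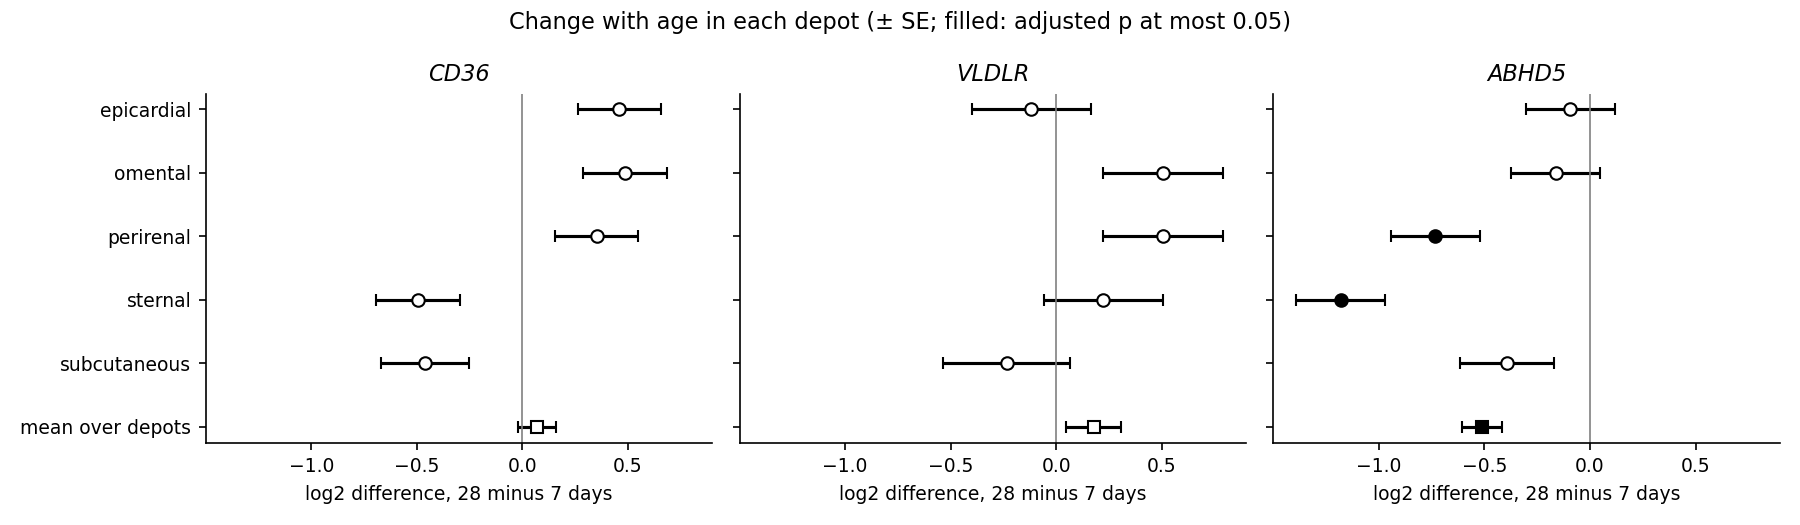
Log2 difference ± SE between 28 and 7 days in each depot and averaged over the 5 depots (squares), for CD36, VLDLR and ABHD5; filled symbols have a limma adjusted p of at most 0.05. ABHD5 is filled for perirenal fat (-0.73), sternal fat (-1.18) and the mean (-0.51), and no CD36 or VLDLR difference is filled.

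CD36 had opposite signs in different depots. Omental fat had 9.65, 9.84, 10.21, 10.06 and 9.87 at 28 days, against 9.44, 9.65, 9.27, 9.51 and 9.32 at 7 days, with the ranges meeting at 9.65 but not overlapping. Sternal fat had 9.41, 9.13, 9.40, 8.52 and 9.05 at 28 days, against 9.54, 9.89, 9.46, 9.66 and 9.43 at 7 days, also with no overlap and the other way round. No overlap upwards was seen for 11.2% of all probe sets in omental fat, where 14.6% were called. Downwards it was seen for 2.20% in sternal fat, where 6.37% were called. The differences were 0.49 ± 0.20 in omental fat (adjusted p = 0.0937) and -0.50 ± 0.20 in sternal fat (adjusted p = 0.153), so neither passed the threshold in the fit over all 49 arrays. Omental fat passed in a fit of its own arrays (adjusted p = 0.0274). Both depots passed when testing was limited to the 1752 probe sets averaging 4 or more (adjusted p = 0.0486 for omental and 0.0488 for sternal fat). The share called among those 1752 is not given here, so these passes have no background beside them.

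In epicardial fat the CD36 difference between 28 and 7 days was 0.46 ± 0.20 (adjusted p = 0.205), in perirenal fat 0.35 ± 0.20 (0.353) and in subcutaneous fat -0.46 ± 0.21 (0.182). Subcutaneous fat gave -0.70 (adjusted p = 0.034) without replicate A of 7 days. A test of the difference itself, the F test of depot by age, passed for CD36 (adjusted p = 0.0118), as for 9.17% of all probe sets. It gave an adjusted p of 0.161 once sternal and subcutaneous arrays with CKM above 4 were omitted. The mean over depots was 0.07 ± 0.09 (adjusted p = 0.633), and -0.0094 (0.958) after quantile normalization.

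ABHD5 also passed the test of depot by age (adjusted p = 0.0442), but 27 of the 49 arrays, left out singly, took it past the threshold, with an adjusted p of 0.0957 at most, without sternal replicate E of 7 days. In sternal fat the ABHD5 change with age differed from the mean change of the other 4 depots by -0.83 ± 0.24 (adjusted p = 0.0266), in a comparison with 5.52% of all probe sets called. Quantile normalization gave -0.63 (adjusted p = 0.146), the omission of sternal and subcutaneous arrays with CKM above 4 gave -0.50 (0.488), and omission of sternal replicate E or G of 7 days or J or N of 28 days gave -0.70 (0.0806), -0.76 (0.0625), -0.80 (0.0508) and -0.78 (0.0618). For CD36 the same sternal contrast was -0.70 ± 0.22 (adjusted p = 0.0505), below the threshold on omission of any of 15 of the 49 arrays.

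VLDLR was not called between ages in any depot. Its differences between 28 and 7 days were -0.12 ± 0.28 in epicardial fat, where 5.84% of probe sets were called, 0.51 ± 0.28 in omental fat, 0.51 ± 0.28 in perirenal fat, 0.22 ± 0.28 in sternal fat and -0.23 ± 0.30 in subcutaneous fat, where 9.25% were called. Adjusted p-values lay between 0.259 and 0.964. The mean over depots was 0.18 ± 0.13 (adjusted p = 0.344), and the test of depot by age gave 0.502. Omitting sternal and subcutaneous arrays with CKM above 4 gave a mean of 0.35 (adjusted p = 0.0412), with 1 subcutaneous array left at 7 days. The SE of VLDLR within a depot, 0.28 to 0.30, was wider than that of ABHD5, 0.21 to 0.22.

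Other genes of the same pathways were read from lists, 57 genes of lipid uptake and fatty acid transport and 74 of lipolysis and the lipid droplet. Of these 35 and 48 were measured, but 21 and 25 of them averaged below 3. The partners of the 3 genes were among the dim ones. LPL, the lipoprotein lipase that VLDLR works with, had group means between 2.71 and 3.42. PNPLA2, the lipase that ABHD5 activates, had group means between 3.60 and 3.83, and G0S2, which inhibits PNPLA2, between 2.54 and 2.84. LIPE, the hormone-sensitive lipase, had group means between 2.75 and 3.17, and FABP4, a fatty acid carrier of adipocytes, between 2.59 and 2.80. CAV1, a caveola protein that anchors CD36 at the cell surface in mouse cells, had group means between 7.69 and 8.48.

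In epicardial fat at 7 days, VLDLR and CD36 were the only called genes of the 35 uptake genes, 1 higher and 1 lower (5.71% of the list, beside 4.07% of all probe sets), with a list median of -0.04 and a median over all probe sets of 0.0039. Of the 48 lipolysis genes 3 were higher and 4 lower (14.6% of the list), with a list median of -0.0045. The 12 cardiac muscle markers called higher in this comparison moved with these genes, and their part was not tested. PRKACB, a catalytic subunit of protein kinase A, had 6.85 ± 0.52 in epicardial fat and group means between 5.34 and 5.52 in the other depots (log2 difference 1.43 ± 0.14, adjusted p = 1.08e-06). ADRB1, the beta-1 adrenergic receptor, was higher by 1.08 ± 0.25 (adjusted p = 0.0133) and PDE4D, a cyclic AMP phosphodiesterase, by 1.06 ± 0.22 (0.00473). DGAT2, which makes triglyceride, was lower (log2 difference -1.31 ± 0.28, adjusted p = 0.00716), as was PDE3B, the phosphodiesterase through which insulin restrains lipolysis (-0.99 ± 0.25, adjusted p = 0.0229). PDE3B was not called without epicardial replicate D (-0.70, adjusted p = 0.0955), nor ADRB1 or PDE3B without replicate G (0.92 and -0.88, adjusted p = 0.0773 and 0.105).

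In sternal fat at 28 days 1 uptake gene was higher and 6 were lower than in the other depots, and of the lipolysis genes 0 were higher and 12 lower. These were 20% and 25% of the lists, beside 20.1% of all probe sets called and 18.4% called lower, so the uptake share was that of the table. The list medians were -0.06 and -0.13, beside -0.07 over all probe sets. LRP1, a lipoprotein receptor related to VLDLR, was lower (log2 difference -0.78 ± 0.15, adjusted p = 0.000959). So were PDE3B (-0.90 ± 0.26, adjusted p = 0.0158), FITM2, which helps lipid droplets to form (-0.57 ± 0.14, 0.00614), and NPR1, the natriuretic peptide receptor (-0.38 ± 0.07, 0.000409). These splits turned with the scaling. After quantile normalization 4 uptake genes were higher and 1 lower, and 3 lipolysis genes were higher and 0 lower. LRP1 kept its call there, and PDE3B gave -0.52 (adjusted p = 0.228), FITM2 -0.27 (0.283) and NPR1 -0.10 (0.449). PDE3B gave -0.56 (adjusted p = 0.0949) without sternal replicate N and -0.81 (adjusted p = 0.0516) with the replicate block, which left 7 lipolysis genes called.

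Between 28 and 7 days in sternal fat, 2 uptake genes were higher and 0 lower, and 1 lipolysis gene was higher and 4 lower, which is 5.71% and 10.4% of the lists beside 6.37% of all probe sets. FYN, a kinase that binds CD36, was higher by 0.97 ± 0.16 (adjusted p = 4.14e-05), and CAVIN1, a coat protein of caveolae, by 0.65 ± 0.19 (0.0289). ABHD5 fell together with PDE3B (-1.50 ± 0.32, adjusted p = 0.00153), FITM2 (-0.66 ± 0.19, 0.0275) and PRKAR2A, a regulatory subunit of protein kinase A (-0.32 ± 0.09, 0.0265), while GNAI2, an inhibitory G protein subunit, was higher (0.35 ± 0.09, 0.0155). The list medians were 0.02 for uptake and 0.0050 for lipolysis, beside -0.0039 over all probe sets. Of these genes FYN and ABHD5 were also called when sternal and subcutaneous arrays with CKM above 4 were omitted, and PDE3B then gave -1.10 (adjusted p = 0.0895). CAVIN1, FITM2, PRKAR2A and GNAI2 each lost the call on omission of 1 sternal array, for CAVIN1 and FITM2 replicate E of 7 days (0.55 and -0.46, adjusted p = 0.105 and 0.154), for PRKAR2A replicate F of 7 days (-0.26, 0.11) and for GNAI2 replicate O of 28 days (0.29, 0.0789), among others.

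Over the 49 arrays the 3 genes varied together in pairs. Pearson's r was 0.55 for CD36 and ABHD5, -0.43 for CD36 and VLDLR and -0.45 for VLDLR and ABHD5. With the mean of each depot and age removed, r was 0.51, -0.35 and -0.51, so arrays within a group kept these signs. Arrays can share animals, scaling and tissue composition, so these are descriptions.

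The probe sets most like each gene were listed by the same measure. For CD36 these were PICALM (r = 0.82), HOXB6 (0.74), GHR (0.73), PDE3B (0.72) and SKAP2 (0.71). For VLDLR they were ANK3 (0.86), FGF13 (0.84), IDH2 (0.78), CRYAB (0.76) and ACTC1 (0.76), the last being cardiac actin and on the cardiac marker list. For ABHD5 they were HSD17B10 (0.82), TMBIM6 (0.81), CHPT1 (0.79), SNRPG (0.77) and COX6A1 (0.77). With group means removed, PICALM still led for CD36 (0.73), FGF13 came second for VLDLR (0.74) and TMBIM6 second for ABHD5 (0.65).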

How the data were processed

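The authors deposited log2 values, made with GCRMA in the affy package from human arrays hybridised with ovine RNA. GCRMA corrects background by probe sequence, normalizes between arrays and summarises each probe set. For these tools no version is stated in the labels or methods. Of 10273 probe sets 9780 carried 1 gene symbol in the platform annotation, which can be old, 6 several and 487 none. The 9780 symbols were all different, so each of these genes was read from 1 probe set and no second could be compared. Shares of all probe sets refer to these 10273. Array pairs correlated at 0.990 or less, and all arrays were kept as separate samples. Their number limits the precision.

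Differences were tested with limma 3.58.1 in R 4.3.3. Depots were compared in a fit of their own at each age, and ages in a single fit of the 10 groups. Calls needed an adjusted p (Benjamini-Hochberg, over all 10273 probe sets of a comparison) not above 0.05. The scripts were tested on simulated data. From the 2 pathway lists, up to 6 called genes of largest difference could be named in each comparison, besides a fixed set of partner genes such as LPL and PNPLA2, and for each member the 5 probe sets of highest correlation. Members, lists and rules were chosen with earlier results of these data known. Alternatives were a replicate block, testing only probe sets averaging at least 4, quantile normalization, array weights, fits of 1 depot, and omission of single arrays or of arrays with CKM above 4.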

Additional observations from a re-analysis of the deposited data

Results flagged for a closer look

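Of 30 groups of arrays, 5 had an array far from the others, measured by its gap to the nearest array over the range of the group, and chance gives about 1 in 20 groups. CD36 was 8.88 on subcutaneous replicate A of 7 days, with the next array at 9.79. VLDLR was 4.70 on omental replicate I of 28 days, next to 4.96, and 6.03 on perirenal replicate J of 28 days, next to 5.32. ABHD5 was 4.11 on sternal replicate M of 28 days, next to 3.62, and 3.69 on subcutaneous replicate M of 28 days, next to 4.05. Since ABHD5 stood at exactly 4.11 on 10 arrays and VLDLR at exactly 4.97 on 7, small gaps between such repeated values enter these ratios.

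Changes with age that differed between depots were the other kind. The test of depot by age gave an adjusted p of 0.0118 for CD36 and 0.0442 for ABHD5, and the sternal change of ABHD5 differed from that of the other 4 depots by -0.83 (limma).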

How the results depend on the processing

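The calls for CD36 and VLDLR in epicardial fat at 7 days, for VLDLR in epicardial and subcutaneous fat at 28 days and for ABHD5 in sternal fat and over all depots between ages held under every alternative that was run for them. Not counted for epicardial VLDLR at 28 days is the omission of all arrays with CKM above 4, which left epicardial replicate I alone. Every epicardial array of 7 days had CKM above 4, and no fit left them out for it, so the part of muscle was not tested. The other results are listed by setting, as log2 differences with limma adjusted p, or as counts of calls.

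Same-numbered arrays correlated above 0.1, after group means were removed, in 6 of 33 pairs at 7 days and 12 of 39 at 28 days, so the block was kept as an alternative. With the replicate block, ABHD5 in epicardial fat at 7 days was -0.71 (0.0818), CD36 in perirenal fat at 28 days 0.64 (0.0767), ABHD5 in sternal fat at 28 days -0.36 (0.0529) and the sternal change of CD36 against other depots -0.70 (0.0492), ABHD5 differed in 1 pair of depots at each age, VLDLR in 5 pairs at 28 days, and 7 lipolysis genes were called in sternal fat at 28 days.

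With probe sets averaging at least 4, the F test of ABHD5 at 7 days gave 0.0145, CD36 in sternal fat at 28 days -0.43 (0.0267), between ages 0.49 in omental (0.0486) and -0.50 in sternal fat (0.0488), and the sternal change of CD36 against other depots -0.70 (0.0151), with 2 uptake genes called in sternal fat at 28 days. Quantile normalization gave ABHD5 F tests of 0.0312 at 7 days, 0.289 at 28 days and 0.203 for depot by age, CD36 in omental fat at 28 days 0.53 (0.0874), ABHD5 in sternal fat -0.080 (0.716), its sternal change against other depots -0.63 (0.146), and CD36 over depots between ages -0.0094 (0.958). It left 3 CD36 and 0 ABHD5 pairs at 28 days and 3 lipolysis genes in sternal fat, and turned EHD2 to 0.052 (0.733) and ACSL5 to 0.14 (0.343). Array weights gave ABHD5 an F test of 0.0733 and a sternal difference of -0.41 (0.0729) at 28 days, with 1 pair. Fits of 1 depot gave CD36 in omental fat 0.49 (0.0274) and ABHD5 in perirenal fat -0.73 (0.0731) between ages, with 1 uptake and 2 lipolysis genes called in sternal fat.

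Omitting sternal and subcutaneous arrays whose CKM was above 4, ABHD5 F tests gave 0.0216 at 7 days, 0.298 at 28 days and 0.112 for depot by age, where CD36 gave 0.161. VLDLR in subcutaneous fat at 7 days was -1.99, from 1 subcutaneous array, which gives no spread of its own. At 28 days CD36 was -0.61 in epicardial (0.0163), 0.46 in omental (0.0664) and 0.51 in perirenal fat (0.0602), ABHD5 -0.21 in sternal fat (0.601), with 2 CD36 pairs, 0 ABHD5 pairs and 7 lipolysis genes in sternal fat. Epicardial arrays with CKM above 4 were kept in these fits. Between ages CD36 was 0.49 in omental fat (0.0348), VLDLR -0.0056 in sternal fat (1), 0.88 in subcutaneous fat (0.304, with that 1 array at 7 days) and 0.35 over depots (0.0412), and the sternal change of ABHD5 against other depots -0.50 (0.488), with 1 uptake and 2 lipolysis genes in sternal fat. Omitting every array of 28 days with CKM above 4, chosen after seeing the data, gave F tests of 0.051 for CD36 and 0.477 for ABHD5, CD36 at 0.47 in omental (0.0898) and 0.52 in perirenal fat (0.0896) and ABHD5 at -0.24 in sternal fat (0.376), with 0 CD36, 4 VLDLR and 0 ABHD5 pairs and 3 uptake and 4 lipolysis genes in sternal fat. Fewer arrays remain in these fits, and the cause of the changes was not tested.

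Leaving out single arrays gave these ranges. ABHD5 F tests lay between 0.0161 and 0.132 at 7 days, 0.00494 and 0.0815 at 28 days and 0.0131 and 0.0957 for depot by age. At 7 days ABHD5 in epicardial fat lay between -0.79 and -0.62 and VLDLR in subcutaneous fat between -1.26 and -0.39, with 2 to 4 VLDLR pairs, 0 to 2 ABHD5 pairs and 4 to 9 lipolysis genes in epicardial fat. At 28 days CD36 lay between 0.53 and 0.67 in omental, 0.59 and 0.76 in perirenal and -0.50 and -0.28 in sternal fat, and ABHD5 between -0.52 and -0.36 in sternal fat, with 3 to 6 CD36 pairs, 1 to 3 ABHD5 pairs and 3 to 8 uptake genes in sternal fat. Between ages VLDLR lay between -0.29 and 0.050 in epicardial fat (0.039 without epicardial replicate N of 28 days) and -0.64 and 0.24 in subcutaneous fat, ABHD5 between -0.25 and 0.0072 in epicardial and -0.81 and -0.56 in perirenal fat, and CD36 between -0.70 and -0.31 in subcutaneous fat. The sternal change against other depots lay between -0.78 and -0.56 for CD36 and -0.97 and -0.70 for ABHD5, and 1 to 4 uptake and 3 to 6 lipolysis genes were called in sternal fat between ages.

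ABHD5 and VLDLR lie near the lowest signal on part of the arrays, which limits small differences.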
